A study of Mus musculus with 4 samples.

Results

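The genes described here are 41 cell cycle and DNA replication genes, chosen by name as known markers of dividing cells and not by any value of these arrays. All 41 were matched to the arrays, out of 20637 named genes. They comprise 13 genes of DNA replication and nucleotide supply, 24 genes of mitosis and 4 regulators of the cycle. Expression was measured in dendritic cells sorted by flow cytometry from the colonic lamina propria, the connective tissue under the gut epithelium, of C57BL/6J mice. The 4 groups were WT SPF (wild-type females raised specific pathogen-free), KO SPF (CD300a deficient females, SPF), WT GF (wild-type males raised germ-free) and KO GF (CD300a deficient males, germ-free). CD300a is an inhibitory receptor of myeloid cells that binds phosphatidylserine on dying cells. Each group has 1 array, for which cells of 5 mice were taken per the design text. The sources used here do not give age, the kind of CD300a allele or whether the 5 mice were pooled before extraction.

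A cell that divides first licenses its replication origins, on which the Mcm helicase is loaded, and then copies its DNA with the help of the sliding clamp Pcna and of enzymes that supply deoxynucleotides. E2F transcription factors switch on most of these genes at the G1/S transition. Cyclin B and Cdk1 later drive mitosis, in which kinases, kinetochore proteins and kinesin motors separate the chromosomes. The mitotic genes are switched on in G2 by MuvB complexes with B-Myb and by FoxM1. Their promoters often hold CCAAT and CHR elements. Dendritic cells of the gut are replenished from bone marrow precursors that still divide, while most mature dendritic cells do not, and plasmablasts and crypt epithelium are other dividing cells of the colon.

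Levels below are log2 signals relative to the 75th percentile of the same array, and a difference is taken on that scale as KO minus WT, or as GF minus SPF, so that 1 is 2-fold. Values of 4 arrays are given in the order WT SPF, KO SPF, WT GF, KO GF. A group of 1 array allows no test of any pair, so pairs are described by size alone. The error that the scanner software models for a spot had a median of 10.1% of the signal for members above background on the WT SPF array, and 10.1%, 10.1% and 10.2% on the others. A gene counted as measured in a pair when it was well above background, by the scanner's own flag, on at least 1 of the 2 arrays. In sorted cells measured in bulk, fewer dividing cells and less RNA per dividing cell cannot be told apart.

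Of all named genes, 13797 to 15055 were above background on an array. Both SPF arrays were on slide 1 and both GF arrays on slide 2, so slide, scan and labelled sex move with housing and cannot be told apart from it. Each genotype comparison lies within 1 slide. The brightest probe of Cd300a read 7.88, 7.91, 7.60 and 8.05 and was not lower on the arrays labelled deficient. Whether the probe lies inside the deletion is unknown here, so it does not test the labels, and these arrays are called KO-labelled. Xist, which is transcribed from the inactive X of female cells, was not above background on the WT GF array (-5.08) but read 3.62 on the KO-labelled GF array, which is labelled male. It read 4.87 and 5.45 on the SPF arrays. The Y-linked gene Ddx3y was above background on both GF arrays only (2.07 and 0.59). Eif2s3y, also Y-linked, was above background on both GF arrays (0.31 and -0.59) and on the KO-labelled SPF array (-2.56), which is labelled female. The KO-labelled arrays of both housings therefore carry a signal that goes against their labelled sex. The comparisons that do not use the KO-labelled GF array are KO minus WT under SPF housing and GF minus SPF in WT. The dendritic cell genes Itgax, Flt3 and Zbtb46 were above background on all 4 arrays, with Itgax at 4.32, 4.44, 3.19 and 2.15. Flt3 (0.26, 0.59, 0.14 and -0.71) and Zbtb46 (-1.51, -0.06, -1.56 and -1.26) were dimmer. The median level of 11 conventional dendritic cell markers was 0.45, 0.59, 1.37 and -0.54. That of 10 macrophage and monocyte markers was higher on every array, at 6.24, 5.81, 5.98 and 5.00.

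Of the 41 genes, 38 were above background on all 4 arrays, which included all 13 replication genes. The mitotic kinase gene Aurkb passed on both WT arrays only and the cyclin gene Ccne2 on the WT GF array only. Cenpf, which encodes a kinetochore protein, passed on none and is not counted further. The main feature of the 38 genes was a low level on the KO-labelled GF array. It was the lowest of the 4 arrays for 26 of the 38, against 40.4% of all 12884 genes above background everywhere. The KO-labelled SPF array was the highest for 18 of them, against 21.5% of all genes, and the lowest for 1, against 27.2%. The WT arrays lay between, with WT SPF highest for 7 (23.6% of all genes) and lowest for 8 (20.1%), and WT GF highest for 11 (32.1%) and lowest for 3 (12.2%). The KO-labelled GF array was highest for 2, against 22.8%, and 11 members had KO-labelled SPF highest and KO-labelled GF lowest at once, against 14.5%. Under the other settings the count of lowest values on KO-labelled GF ran from 22 to 27 and that of highest values on KO-labelled SPF from 14 to 21.

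**Figure D1:**
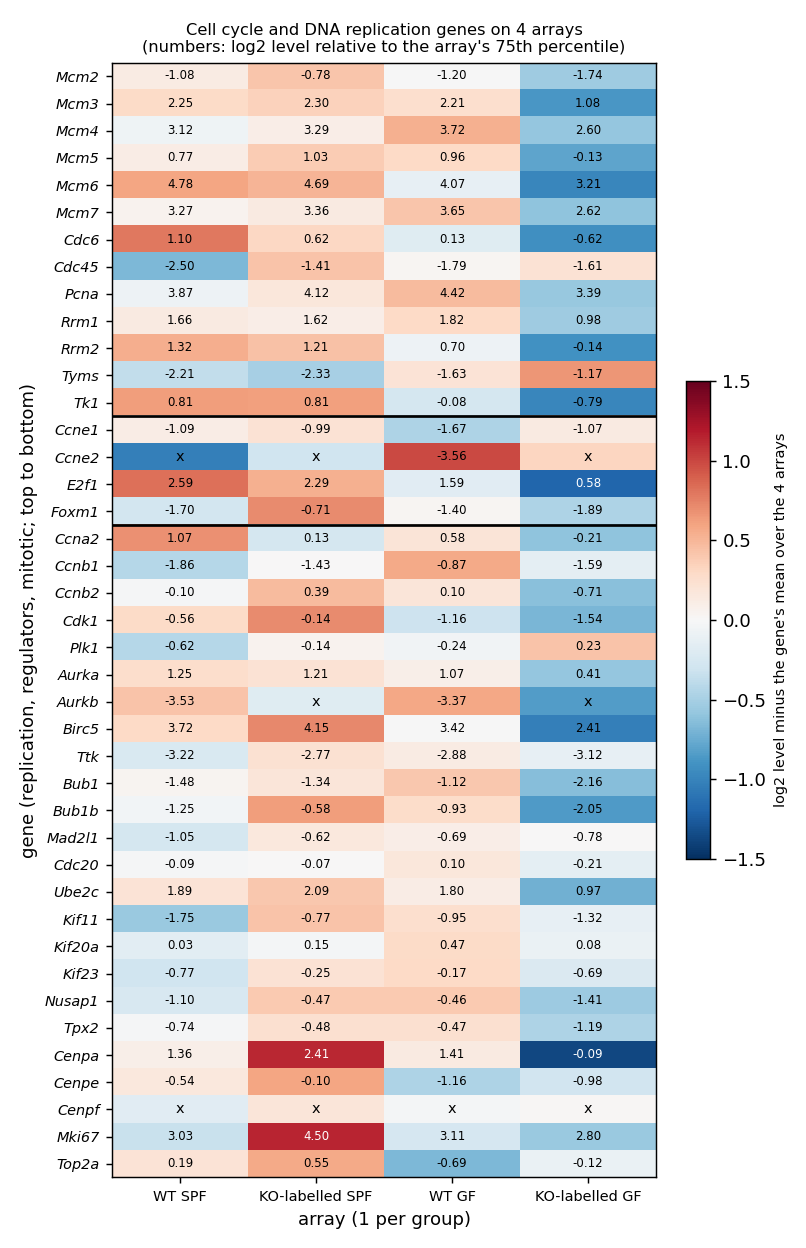
Heat map of the 41 genes (rows) on the 4 arrays (columns, 1 array per group). Printed numbers are log2 levels relative to the array's 75th percentile, colours show the level minus the gene's own mean over the 4 arrays, and x marks a value not well above background. The KO-labelled GF column holds the lowest value for 26 of the 38 genes measured everywhere, against 40.4% of all genes. Tyms and Plk1 are among the exceptions.

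The promoters of the members are described next. Members and motifs were both chosen as known for the cell cycle, so the motif shares do not depend on the array values. RefSeq promoters of GRCm38.p6, which span 250 bases before to 50 bases after the annotated start, were found for 34 of the 41 genes. Those of Mcm4, Ccna2, Ccne2, Foxm1, Aurkb, Tpx2 and Kif20a were not found. The motifs searched on both strands were CCAAT, the CHR (TTTGAA or TTCGAA) and the E2F motif (TTTCCCGC, TTTGGCGC, TTTCGCGC or TTTGCCGC). The CHR letters occurred in 15 of 20 mitotic promoters (75%) and in 3 of 12 replication promoters (25%), against 17.1% of 16354 promoters of named genes. The E2F letters occurred in 1 of 20 mitotic promoters (5%) and 5 of 12 replication promoters (41.7%), against 3.01% of all. CCAAT occurred in 17 of 20 mitotic and 9 of 12 replication promoters, against 38.8% of all. A match of letters is a description and not a bound site, and the base composition of these promoters was not matched.

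**Figure D2:**
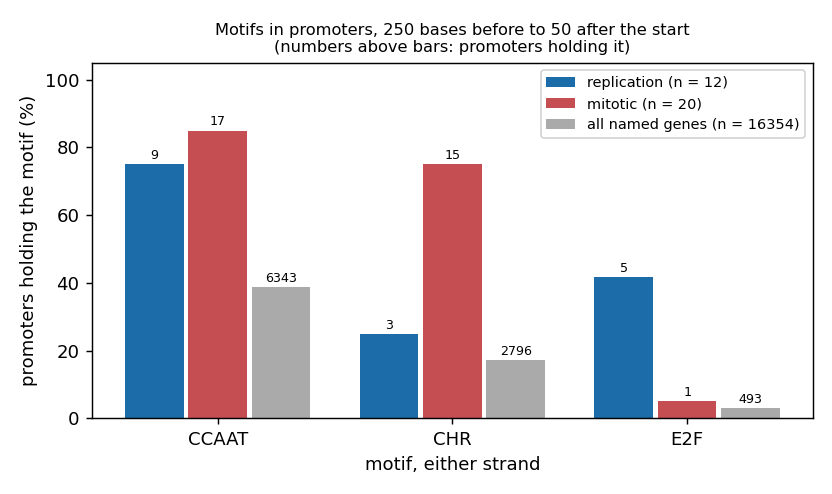
Bars give the percentage of promoters (y axis) that hold each motif on either strand (x axis), with the number of promoters above each bar. CHR letters were in 15 of 20 mitotic promoters and E2F letters in 5 of 12 replication promoters, against 17.1% and 3.01% of all.

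The sequences below are, per class, the 4 members with a promoter in the table whose median difference over the 4 comparisons was largest in size. They are written 5′ to 3′ on the gene's strand, and capitals mark the motif letters on either strand. In Mcm6 an E2F match on the plus strand overlaps one on the minus strand, and in Ube2c the letters of a pair of CCAAT matches overlap. The mitotic genes are Cenpa (the centromeric histone), Birc5 (survivin), Cdk1 and Ube2c (a ubiquitin-conjugating enzyme of mitotic exit).
Cenpa, chr5:30666636-30666935, plus strand: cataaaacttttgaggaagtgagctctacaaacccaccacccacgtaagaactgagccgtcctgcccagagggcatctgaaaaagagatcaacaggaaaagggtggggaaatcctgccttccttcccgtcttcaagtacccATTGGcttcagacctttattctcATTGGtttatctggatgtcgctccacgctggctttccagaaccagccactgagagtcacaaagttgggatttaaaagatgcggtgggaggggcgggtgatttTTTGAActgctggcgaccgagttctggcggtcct
Birc5, chr11:117848987-117849286, plus strand: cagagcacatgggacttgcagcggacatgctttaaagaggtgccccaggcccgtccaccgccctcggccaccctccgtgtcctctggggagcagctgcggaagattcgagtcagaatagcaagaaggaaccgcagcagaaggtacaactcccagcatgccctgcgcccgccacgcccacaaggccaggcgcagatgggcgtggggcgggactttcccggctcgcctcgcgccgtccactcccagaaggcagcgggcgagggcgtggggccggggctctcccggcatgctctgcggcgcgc
Cdk1, chr10:69352863-69353162, minus strand: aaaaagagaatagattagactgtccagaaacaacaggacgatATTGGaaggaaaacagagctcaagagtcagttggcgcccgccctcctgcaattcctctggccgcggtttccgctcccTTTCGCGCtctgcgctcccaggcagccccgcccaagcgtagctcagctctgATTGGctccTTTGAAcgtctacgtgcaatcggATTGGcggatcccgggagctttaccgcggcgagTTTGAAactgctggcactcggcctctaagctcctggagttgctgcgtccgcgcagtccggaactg
Ube2c, chr2:164769679-164769978, plus strand: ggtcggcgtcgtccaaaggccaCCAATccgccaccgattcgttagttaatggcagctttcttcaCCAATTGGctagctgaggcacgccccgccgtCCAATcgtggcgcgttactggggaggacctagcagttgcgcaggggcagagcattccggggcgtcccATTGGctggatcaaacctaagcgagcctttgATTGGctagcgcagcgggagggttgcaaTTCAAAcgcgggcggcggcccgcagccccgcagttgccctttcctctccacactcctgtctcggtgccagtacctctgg

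The Cenpa window holds 2 CCAAT matches and 1 CHR match, Cdk1 holds 3 CCAAT, 2 CHR and 1 E2F match, and Ube2c holds 6 CCAAT matches and 1 CHR match. None of the letters searched is in the Birc5 window. The replication genes are Cdc6 (which loads the helicase), Tk1 (thymidine kinase), Mcm6 (a helicase subunit) and Rrm2 (the small subunit of ribonucleotide reductase).
Cdc6, chr11:98907901-98908200, plus strand: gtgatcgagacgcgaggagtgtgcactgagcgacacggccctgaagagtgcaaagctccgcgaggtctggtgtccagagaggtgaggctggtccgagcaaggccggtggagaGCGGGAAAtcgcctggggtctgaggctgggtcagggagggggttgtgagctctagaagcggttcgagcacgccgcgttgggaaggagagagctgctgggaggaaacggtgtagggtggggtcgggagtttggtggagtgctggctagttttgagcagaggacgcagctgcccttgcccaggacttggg
Tk1, chr11:117825965-117826264, minus strand: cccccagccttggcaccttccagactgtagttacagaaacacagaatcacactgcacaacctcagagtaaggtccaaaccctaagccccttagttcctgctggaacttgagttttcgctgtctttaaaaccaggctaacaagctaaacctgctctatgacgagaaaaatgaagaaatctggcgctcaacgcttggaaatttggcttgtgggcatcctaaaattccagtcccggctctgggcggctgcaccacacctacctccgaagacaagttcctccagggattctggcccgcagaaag
Mcm6, chr1:128359656-128359955, minus strand: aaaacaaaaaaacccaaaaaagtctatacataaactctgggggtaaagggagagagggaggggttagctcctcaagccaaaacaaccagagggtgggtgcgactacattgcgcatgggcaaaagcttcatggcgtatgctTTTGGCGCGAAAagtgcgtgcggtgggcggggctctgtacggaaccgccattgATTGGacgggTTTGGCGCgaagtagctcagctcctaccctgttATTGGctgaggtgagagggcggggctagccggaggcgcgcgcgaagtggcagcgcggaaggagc
Rrm2, chr12:24708004-24708303, plus strand: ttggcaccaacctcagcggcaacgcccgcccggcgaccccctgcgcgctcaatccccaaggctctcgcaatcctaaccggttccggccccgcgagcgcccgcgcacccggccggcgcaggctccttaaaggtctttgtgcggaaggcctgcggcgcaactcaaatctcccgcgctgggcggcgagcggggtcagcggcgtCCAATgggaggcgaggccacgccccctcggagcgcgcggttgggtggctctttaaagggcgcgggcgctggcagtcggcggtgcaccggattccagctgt

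Mcm6 holds 3 E2F and 2 CCAAT matches, Cdc6 holds 1 E2F match and Rrm2 holds 1 CCAAT match. None of the letters is in the Tk1 window.

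Under SPF housing the members were on balance slightly higher in KO-labelled than in WT cells. Of 39 measured members, 3 were 2-fold or more above the WT array and 0 below it by that much, against 5.61% of 14877 measured genes higher and 6.6% lower. Their median difference was 0.26, against -0.06 over all measured genes. The positive values were mostly those of mitotic genes, of which 20 of 23 were above 0 with a median of 0.43. The 13 replication genes had a median of 0.05 and 7 of 13 above 0. The count of 3 was 1 with normexp background correction and 5 with cyclic loess, so it depended on the processing, while the median stayed between 0.16 and 0.29.

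Under GF housing the same comparison gave the opposite sign. Of 40 measured members, 0 were at least 2-fold higher and 11 lower, against 8.8% of 15697 genes higher and 7.77% lower. The median was -0.72, with 34 of 40 below 0, against -0.20 over all genes. Replication genes were at -0.84 (11 of 13 below 0) and mitotic genes at -0.66 (20 of 23 below 0). Many of the 11 lay close to the 2-fold line, and the count was 2 with normexp, with the deposited table and with the 75th percentile of the probes above background everywhere, 4 with cyclic loess and 7 with quantile scaling. The median relative to that of all genes ran from -0.55 to -0.30 over all settings. Since bright genes were lower on this array in general, genes were split into 4 equal bins by mean level. In the brightest bin all genes had a median of -0.45 and the 9 members -1.02, and in bin 2 from the dim end all genes had -0.08 and the 15 members -0.49.

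Housing was compared within each genotype, with arrays that the genotype comparisons also use. In WT cells the members hardly separated from other genes. Their median GF minus SPF difference was 0.19 over 40 measured members, against 0.13 over all 15656 genes. Only Ccne2 was at least 2-fold higher, being below background on the SPF array (at least 1.50-fold), and only E2f1 was 2-fold lower, against 17.5% and 9.43% of all genes. In KO-labelled cells 15 of 38 measured members were at least 2-fold lower on the GF array and 1, Tyms, was higher, against 15.4% and 21.6% of 15572 genes. The median was -0.81, with 36 of 38 below 0, against 0.05 over all genes. The count of 15 was 8 with normexp and 9 with the deposited table, and up to 17 elsewhere.

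**Figure D3:**
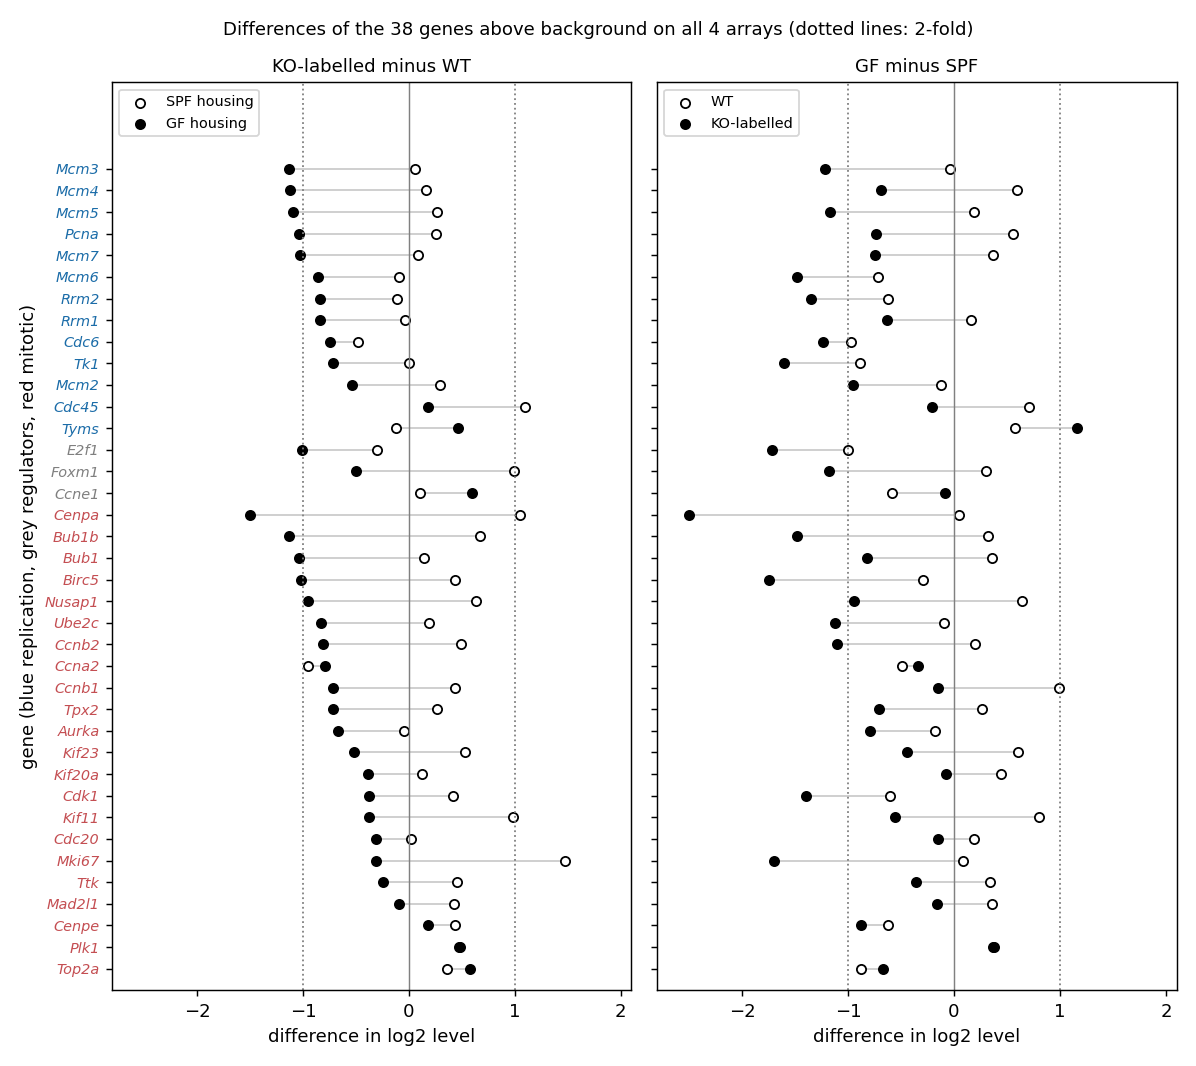
Differences in log2 level (x axis) for the 38 genes above background on all 4 arrays (y axis, coloured by class). Left, KO-labelled minus WT under SPF (open) and GF (filled) housing, and right, GF minus SPF in WT (open) and KO-labelled cells (filled). The filled points lie left of the open ones for 34 of 38 genes in both panels, against 60.2% of all genes. Both panels show the same difference between differences.

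The genotype difference under GF minus that under SPF housing put the 4 arrays into 1 value per gene, which is also the housing difference in KO-labelled minus that in WT cells. It was below 0 for 34 of the 38 members, against 60.2% of the 12884 genes, with a median of -0.87 against -0.18. It was at least 2-fold below 0 for 17 members and at least 2-fold above for 0, against 11.7% and 7.23% of all genes. By sign alone, 24 of 38 were higher in the SPF pair and lower in the GF pair, a pattern of 29.2% of all genes. Another 8 were lower in both pairs (36.9% of all genes), 5 were higher in both (16.2%) and 1, Tyms, was lower in the SPF and higher in the GF pair (17.7%). The design leaves no residual degree of freedom to test this difference. Over the other settings the median ran from -0.88 to -0.50.

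Among the replication genes, the 6 subunits of the Mcm2-7 helicase, which unwinds DNA at the fork, differed little between genotypes under SPF housing (-0.09 to 0.29). Under GF housing all 6 were lower on the KO-labelled array, by differences of -0.53 to -1.13. Mcm3 read 2.25, 2.30, 2.21 and 1.08, so that 3 arrays were close and the KO-labelled GF array stood below them. Mcm5 read 0.77, 1.03, 0.96 and -0.13 and had the same shape. Mcm4 (3.12, 3.29, 3.72 and 2.60) and Mcm7 (3.27, 3.36, 3.65 and 2.62) were highest on the WT GF array. Mcm6 read 4.78, 4.69, 4.07 and 3.21 and Mcm2 read -1.08, -0.78, -1.20 and -1.74. For these genes, and for Mcm3 by a small margin, both GF arrays were below both SPF arrays.

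Pcna, the sliding clamp of the DNA polymerases, read 3.87, 4.12, 4.42 and 3.39, with a genotype difference of 0.25 under SPF and -1.04 under GF housing. Cdc6, which helps load the helicase onto origins, read 1.10, 0.62, 0.13 and -0.62 and was lower on both KO-labelled arrays and on both GF arrays. Its other probe was not above background on any array. Cdc45, a component of the active helicase, went against its neighbours, with -2.50, -1.41, -1.79 and -1.61. It was lowest on the WT SPF array, and its difference of 1.09 there is the only replication value at least 2-fold higher in KO-labelled cells.

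The enzymes of nucleotide supply were not uniform. Rrm1 and Rrm2, the large and small subunits of ribonucleotide reductase, were both 0.84 lower on the KO-labelled GF array than on the WT GF array, with Rrm2 at 1.32, 1.21, 0.70 and -0.14. Tk1, the S-phase thymidine kinase of the salvage pathway, read 0.81, 0.81, -0.08 and -0.79, so the genotypes were equal under SPF housing and both GF arrays were lower. Tyms, thymidylate synthase of the de novo pathway, was the exception, with -2.21, -2.33, -1.63 and -1.17. It was highest on the array on which most of the others were lowest.

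Of the regulators, E2f1, an activator of G1/S genes, read 2.59, 2.29, 1.59 and 0.58. Its 4 values were ordered with both GF arrays below both SPF arrays and each KO-labelled array below its WT partner. Foxm1, the activator of G2/M genes, read -1.70, -0.71, -1.40 and -1.89, a difference of 0.99 between genotypes under SPF and -0.49 under GF housing. Its other probe differed by 0.41 under SPF housing. Ccne1, which encodes cyclin E1, read -1.09, -0.99, -1.67 and -1.07. A second Ccne1 probe had the opposite sign under SPF housing (-1.24), so no direction is given for it.

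Among the cyclins of mitosis and their kinase, Ccnb2 read -0.10, 0.39, 0.10 and -0.71 and Cdk1 read -0.56, -0.14, -1.16 and -1.54. Both were highest on the KO-labelled SPF and lowest on the KO-labelled GF array. The 2 other Cdk1 probes disagreed under GF housing, at 1.15 and -0.55, where the brightest gave -0.38. Ccna2, the cyclin of S and G2 phases, was lower in KO-labelled cells under both housings, at 1.07, 0.13, 0.58 and -0.21. Ccnb1 read -1.86, -1.43, -0.87 and -1.59, and its other 2 probes gave -0.71 and 0.04 under SPF and -1.05 and -0.36 under GF housing, so that only the GF direction was common to all 3.

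The mitotic kinases and their partners did not share one order of arrays. Birc5, survivin, which is a subunit of the chromosomal passenger complex, read 3.72, 4.15, 3.42 and 2.41. All 3 Birc5 probes were above background everywhere and gave 0.43, 0.42 and 0.14 under SPF and -1.02, -0.96 and -0.72 under GF housing, so the direction was shared in both pairs. Aurkb, the kinase of the same complex, was at least 1.46-fold lower on the KO-labelled GF array than on the WT GF array and at least 1.26-fold lower on the KO-labelled SPF than on the WT SPF array, being below background on both KO-labelled arrays. Aurka, the centrosomal kinase, read 1.25, 1.21, 1.07 and 0.41. Plk1, polo-like kinase, read -0.62, -0.14, -0.24 and 0.23 and was one of 2 members, with Tyms, highest on the KO-labelled GF array. Ttk (-3.22, -2.77, -2.88 and -3.12) varied by 0.45 over all arrays.

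Bub1, a checkpoint kinase at the kinetochore, is the member for which the arrays hold repeated spots of 1 probe, and these show the scatter of a measurement within an array. On the KO-labelled GF array 8 unflagged spots ran from -2.33 to -1.98, while 10 spots on the WT GF array ran from -1.25 to -0.93. These ranges did not overlap, whereas those of the WT SPF array (-1.61 to -1.34, 9 spots) and the KO-labelled SPF array (-1.53 to -1.07, 10 spots) did. The SD over spots was 0.09 to 0.15. It covers spotting and scanning and no spread between mice. The related checkpoint gene Bub1b read -1.25, -0.58, -0.93 and -2.05.

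Mad2l1, the MAD2 checkpoint protein, read -1.05, -0.62, -0.69 and -0.78 by its brightest probe, which was not lowest on the KO-labelled GF array. Its other probes differed by -0.88 and -0.44 between genotypes under GF housing and by -1.61 and -1.60 between housings in KO-labelled cells. The probe chosen therefore sets the size for this gene. For the anaphase-promoting complex, whose ubiquitin-conjugating enzyme is Ube2c, Ube2c read 1.89, 2.09, 1.80 and 0.97, and its second probe gave 0.09 and -0.75 for the genotype differences of 0.19 and -0.83. Cdc20, the coactivator itself, stayed within 0.31 over all arrays (-0.09, -0.07, 0.10 and -0.21).

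Motors and other proteins of the spindle and of cytokinesis shared the signs of their moderate genotype differences, but not the order of the arrays. Kif11 (the bipolar spindle motor), Kif20a and Kif23 (motors of cytokinesis), Nusap1 and Tpx2 (spindle assembly factors) were all above 0 between genotypes under SPF housing, by 0.13 to 0.98, and all below 0 under GF housing, by -0.37 to -0.95. Nusap1 read -1.10, -0.47, -0.46 and -1.41, so that the WT SPF and KO-labelled GF arrays were low and the other 2 level. Kif11 (-1.75, -0.77, -0.95 and -1.32) had the WT SPF array lowest.

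Cenpa, the histone H3 variant that marks centromeres, had the widest range of the 38 genes, 2.50. It read 1.36, 2.41, 1.41 and -0.09, so that the WT arrays were level, the KO-labelled SPF array was 1.05 above its partner and the KO-labelled GF array 1.50 below. It was the only member at least 2-fold different in opposite directions in the 2 genotype comparisons. Mki67, the Ki-67 antigen that coats mitotic chromosomes, read 3.03, 4.50, 3.11 and 2.80. Here the KO-labelled SPF array stood apart and the other 3 were close, and the second Mki67 probe gave the same SPF difference, 1.47. Top2a, topoisomerase II alpha, read 0.19, 0.55, -0.69 and -0.12, and Cenpe, a kinetochore motor, -0.54, -0.10, -1.16 and -0.98. Both were lowest on the WT GF array. On the KO-labelled GF array both read above the WT GF array but below both SPF arrays.

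Replication and mitotic genes were then set against each other. The replication median lay 0.38 below the mitotic median for KO minus WT under SPF housing, 0.18 below under GF housing, 0.04 below for GF minus SPF in WT and 0.20 below in KO-labelled cells. The SPF genotype value kept its sign under all alternatives (-0.44 to -0.24), and so did the GF one (-0.41 to -0.13). The housing values changed sign when the mean over all probes of a gene replaced the brightest probe (0.01 in WT and 0.06 in KO-labelled cells). Each of these is a difference of medians between sets whose ranges overlapped in every comparison.

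**Figure D4:**
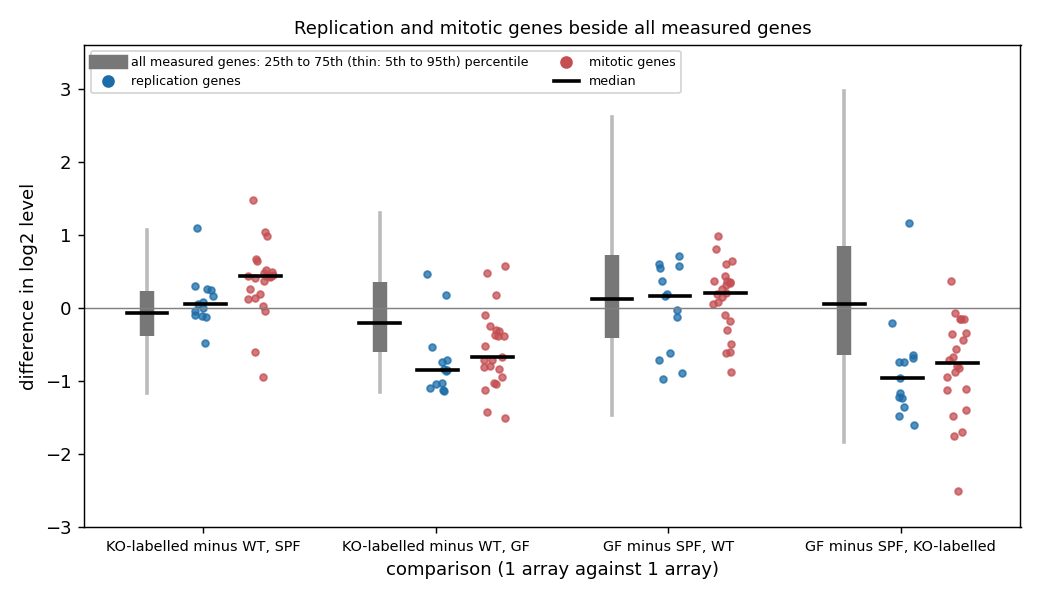
Differences in log2 level (y axis) in the 4 comparisons (x axis), for replication genes (blue points) and mitotic genes (red points) with their medians, beside the percentiles of all measured genes (grey). Mitotic genes sit above replication genes under SPF housing (0.43 and 0.05), and both classes sit below the median of all genes on the KO-labelled GF array.

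Other genes of the pathway were taken from 5 lists of 154 genes that hold none of the 41. Of 51 further replication genes, 50 were measured in the GF genotype pair, with 0 at least 2-fold higher and 7 lower, against 8.8% and 7.77% of all genes. Their median was -0.59, against -0.20. Among those above background on both arrays the lowest were Asf1b, a histone chaperone (-1.62), and Pole2, a polymerase epsilon subunit (-1.59). In KO-labelled cells 15 of 48 were 2-fold lower and 1 higher on the GF array, against 15.4% and 21.6% of all genes (median -0.67), with Chaf1b at -1.95 and Rpa1 at -1.87. Under SPF housing 3 of 49 were 2-fold higher and 1 lower, near or below the 5.61% and 6.6% of all genes (median 0.06), with the origin-firing kinase gene Cdc7 at 1.07.

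Of 59 further mitotic genes, 56 were measured in the GF genotype pair, with 2 at least 2-fold higher and 10 lower, against 8.8% and 7.77% of all genes (median -0.52). Cks1b (-1.58) and Pbk (-1.52) were the lowest, and Depdc1a (1.77) and Hmmr (1.06) the highest. Under SPF housing 6 of 58 were higher and 0 lower, against 5.61% and 6.6% (median 0.26), led by the kinesin genes Kif18b (1.98) and Kif15 (1.83). Kif15 read -3.33, -1.50, -1.62 and -2.69, so it was low on the WT SPF and KO-labelled GF arrays. In KO-labelled cells 23 of 58 were 2-fold lower on the GF array and 2 higher, against 15.4% and 21.6% (median -0.79). In WT cells 4 were lower and 8 higher, below the 9.43% and 17.5% of all genes (median -0.06).

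Upstream regulators are given for the same comparisons. Of 9 G1 cyclins, kinases and Myc genes, 0 were 2-fold lower in either genotype comparison, a count too small to set against the 6.6% and 7.77% of all genes, and Cdk6 was 2-fold higher by measured value in the GF pair, where it was below background on the WT array. Ccnd1 read 2.49, 2.38, 2.83 and 2.03, Ccnd2 2.21, 2.39, 1.57 and 1.69, and Ccnd3 2.82, 2.72, 1.49 and 0.93. The 17 genes of the E2F and pocket protein list had a median of -0.19 in the GF genotype pair, against -0.20 over all genes, and 0 were 2-fold different, against 8.8% of all genes higher and 7.77% lower. Under SPF housing the MuvB subunit gene Lin54 (1.45) and Mybl2, the B-Myb partner of that complex (1.34), were 2-fold higher. The pocket protein genes Rb1, Rbl1 and Rbl2 differed between genotypes by 0.19, 0.10 and -0.39 under SPF and -0.60, -0.08 and 0.10 under GF housing.

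Genes that restrain the cycle were also compared. Of 18 cyclin-dependent kinase inhibitor and quiescence genes, 11 were at least 2-fold lower and 1 higher on the GF array in KO-labelled cells, against 15.4% and 21.6% of all genes, with a median of -1.13. In the GF genotype comparison 2 of the 18 were 2-fold lower and 0 higher, against 7.77% and 8.8%, with a median of -0.68. Cdkn1a, the p21 inhibitor, read 2.68, 3.60, 2.84 and 2.36, and Cdkn1b, the p27 inhibitor, 3.02, 3.33, 3.12 and 2.31. Both were highest on the KO-labelled SPF and lowest on the KO-labelled GF array, as Cenpa and Birc5 were. Cdkn2c (p18) read 1.66, 1.56, 1.18 and 0.38 and Cdkn2d (p19) 4.63, 4.26, 4.28 and 3.29. Cdkn2b (p15) had the opposite order, -3.45, -2.08, -0.38 and 0.54, and was higher on both GF arrays. Cdkn2a read -3.55, -3.28 and -3.27 and was not above background on the KO-labelled GF array, while Cdkn1c read -2.77, -3.11, -2.97 and -2.62.

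Markers of other cells differed between the arrays too. The summed linear level of the 41 genes, with the array's 75th percentile as 1, was 126, 152, 123 and 68.6. The sum over 11 conventional dendritic cell markers was 95.3, 99.8, 82.1 and 51.5. That over 10 macrophage and monocyte markers was 702, 587, 603 and 322, so both sums were also lowest on the KO-labelled GF array. The conventional sum weighs most on Sirpa, its brightest marker on each array (5.57, 5.19, 5.39 and 4.81). For KO minus WT under GF housing, 9 of 10 measured conventional markers were below 0, while Zbtb46 was 0.29 higher. Epithelial markers were 6.60, 9.87, 206 and 297, with 10, 12, 15 and 15 of 15 above background, and Epcam read -0.77, -0.42, 4.18 and 4.82. B cell and plasma cell markers were 57.4, 155, 25.8 and 23.0, with 11, 12, 10 and 10 of 14 above background. For KO minus WT, 11 of 12 measured markers of this list were above 0 under SPF and 4 of 10 under GF housing. For GF minus SPF, 5 of 11 were above 0 in WT and 1 of 12 in KO-labelled cells. Jchain, the joining chain of secreted antibody, read 3.99, 6.20, -0.99 and -1.68. Of 10 matched crypt stem and transit-amplifying genes, 6, 7, 8 and 10 were above background. The stem cell gene Lgr5 was above background on the KO-labelled GF array only (-3.08). For KO minus WT, 4 of 7 measured crypt genes were above 0 under SPF and 9 of 10 under GF housing (median 0.68). For GF minus SPF, 4 of 8 were above 0 in WT and 8 of 10 in KO-labelled cells. T cell markers were 12.7, 15.01, 40.5 and 27.5, with 6, 6, 7 and 7 of 11 above background. The order of the T cell sums follows Cd4 (3.30, 3.38, 5.18 and 4.47). For GF minus SPF, 6 of 8 measured T cell markers were above 0 in WT and 5 of 8 in KO-labelled cells. Endothelial markers were 12.9, 8.64, 19.3 and 10.8, and fibroblast markers 34.3, 21.99, 33.8 and 32.3. Plasmacytoid dendritic cell markers summed to 36.2, 38.5, 49.8 and 63.6, but the order of these sums follows Klk1 (-0.79, -0.62, 3.50 and 4.92). Of the 8 markers 6 were below 0 for KO minus WT under GF housing (median -0.43) and 6 for GF minus SPF in KO-labelled cells (median -0.71). The part of these cell types in the differences of the cell cycle genes was not tested.

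**Figure D5:**
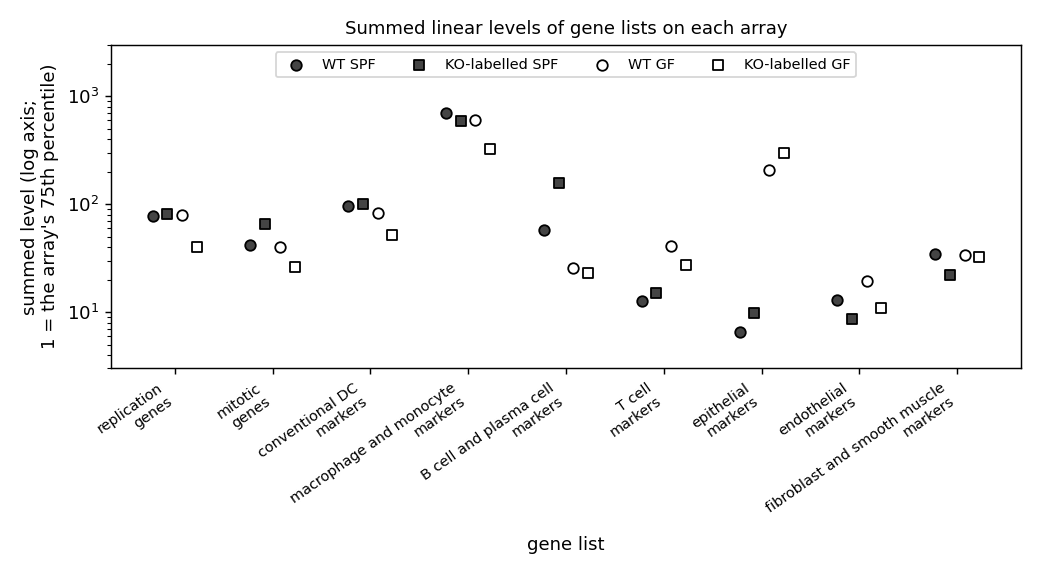
Summed linear levels (y axis, log scale, 1 is the array's 75th percentile) of replication and mitotic genes and of marker lists (x axis) on the 4 arrays (symbols). The KO-labelled GF array (open square) is lowest for the cell cycle, conventional dendritic cell, macrophage, and B cell and plasma cell lists. For the B cell and plasma cell list it lies close to the WT GF array (23.0 and 25.8). It is highest for epithelial markers.

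A fit over all 4 arrays gave few calls among the members. For the genotype effect with housing as a block, limma called 0 of 39 members with Benjamini-Hochberg adjustment, against 0.0665% of 15029 genes higher and 0.0665% lower. At an unadjusted p under 0.05 it had 2 of the 39, against 952 of all 15029 genes. These were Aurkb (-1.01, SE 0.41), which was below background on both KO-labelled arrays, and Ccna2 (-0.87, SE 0.39). After adjustment every other setting also called 0 members. For the housing effect with genotype as a block, limma called 0 members higher and 1 lower, E2f1 (-1.36, SE 0.40, limma adjusted p = 0.0397), which was lower on the GF array in both genotypes. All genes were called higher in 11.3% and lower in 5.18% of cases. The number of members called ran from 0 to 5 over the other settings, with a smallest adjusted p between 0.00811 and 0.0924. The fit has 1 residual degree of freedom, the interaction described above, so its errors measure no spread between mice, and housing includes slide, scan and labelled sex. The genotype effect is a mean over both housings, so opposite signs cancel in it and enter its error. The 0 genotype calls therefore do not test members whose sign differs between housings.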

How the data were processed

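Agilent arrays of 1 colour, 1 per group, measured total RNA that was amplified as cDNA (Ribo-SPIA) before Cy3 labelling, per the labels. The deposited scanner files hold a processed signal intensity per spot, background-subtracted by Feature Extraction 10.10.1.1 (protocol GE1_1010_Sep10, design on mm9) per the file headers. A deposited table of the series holds intensity values equal to that signal times a constant per array (8.30, 8.24, 7.08 and 7.96, medians 237.2, 216.3, 235.7 and 331.4). The scale is linear with no centring of genes, and the rule behind the constants stays unknown. Control spots (3671) and flagged spots were left out, spots of a probe were averaged, and log2 of the signal was set against the array's 75th percentile, a step computed here. Probes were named by unversioned accession through RefSeq (GRCm38.p6), 27191 of 55597 of them. The brightest probe stood for a gene, and 10 members had several. Genes below background on 1 array of a pair count with their measured value. Where such a gene is named, its bound takes the higher of its own value and the array floor. Limma 3.58.1 (R 4.3.3) was tested on simulated data. Figures used matplotlib 3.10.9. All 41 members were open to naming, with the highest and lowest 2 differences per other list and comparison among genes above background on both arrays, CDK inhibitors, D cyclins, pocket proteins and defining markers. Cdk6 and the levels of Kif15 were named after their values were seen. Members and lists were chosen with earlier results of these data known. Alternatives were normexp (offset 50) on median signals, quantile and cyclic loess scaling, another percentile base, the deposited table, all probes averaged, a filter on dim genes and a floor.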

Additional observations from a re-analysis of the deposited data

Results flagged for a closer look

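The median genotype difference of the measured members was 0.26 under SPF and -0.72 under GF housing, against -0.06 and -0.20 over all genes. For the replication genes it was 0.05 and -0.84, so these were near 0 under SPF housing. Of the 38 members above background on all arrays, 24 were higher in the SPF pair and lower in the GF pair. That pattern was held by 29.2% of all genes. The genotype difference under GF minus that under SPF housing had a median of -0.87 over the 38 members, against -0.18 over all genes. It was -0.83 over 13 replication genes and -1.0001 over 22 mitotic genes. The difference was not tested, since each group has 1 array. Cenpa alone was 2-fold different in opposite directions, 1.05 and -1.50, a difference of -2.54, which was not tested either.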

How the results depend on the processing

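No paired analysis was possible because each group has 1 array and the labels give no replicate numbers. The limma fits block on housing or genotype, not on a replicate. Over 23 results, 134 of 177 alternative values stayed close in size to the main value. Another 41 moved further from it without a change of sign, and 2 changed sign. The 32 single-member differences of at least 2-fold kept their sign in all 224 alternative values. The 3 results on the order of arrays and on the difference between genotype differences were added after seeing the data. With normexp the members higher in KO-labelled cells under SPF housing were 1 (main 3) and lower under GF housing 2 (main 11), the GF minus SPF counts 0 and 0 in WT (main 1 and 1) and 0 higher and 8 lower in KO-labelled cells (main 1 and 15). The GF genotype median was -0.43, and replication minus mitotic medians were -0.24 under SPF and -0.41 under GF housing (main -0.38 and -0.18). Quantile scaling gave 7 lower under GF housing and 0 higher for GF minus SPF in KO-labelled cells. Cyclic loess gave 5 higher under SPF, 4 lower under GF housing, and 2 and 0 higher for GF minus SPF in WT and KO-labelled cells. The percentile over probes above background everywhere gave 2 lower under GF housing. The deposited table gave 1 lower under SPF, 2 lower under GF housing and 9 lower for GF minus SPF in KO-labelled cells, with medians of -0.43 and -0.47 for these last 2 and -0.50 for the difference between genotype differences. Averaging all probes gave 1 higher under GF housing, 2 lower for GF minus SPF in WT, and replication minus mitotic medians of -0.33 under GF housing and 0.0089 and 0.0597 for housing in WT and KO-labelled cells, the last 2 with a changed sign. The floor gave 0 higher for GF minus SPF in WT and -0.30 for the GF replication minus mitotic median, and the filter for genes above background on all arrays also gave 0 higher in WT. Limma calls for genotype over all genes were 20, but 0 with normexp, quantile, cyclic loess, the deposited table and averaged probes and 38 with the filter. Those for housing were 2483, but 1313 with normexp, 1586 with cyclic loess and 1557 with the deposited table. Members called for housing were 1, but 0 with quantile, cyclic loess and the deposited table and 5 with the filter.

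The split of all 2-fold calls also depended on scaling. Under SPF housing 835 genes were higher and 982 lower in KO-labelled cells, but 179 and 92 with normexp and 443 and 332 with the filter. Under GF housing the split was 1382 and 1220, but 2289 and 571 with the deposited table, 2014 and 701 with the other percentile base and 515 and 810 with the filter. For GF minus SPF in KO-labelled cells it was 3363 and 2400, but 4613 and 1501, 4017 and 1855 and 1768 and 1976 under the same settings. Signals near background limit Aurkb, Ccne2 and Cenpf, and the number of arrays limits every comparison.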
